A study of Homo sapiens with 24 samples.

Results

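IL8, IL32, IL20RB and DEFB1 are 4 genes of cytokine signalling and epithelial defence. They were chosen by name, as every probe that any of the authors' 6 deposited lists of changed genes calls IL8, IL32, IL20RB or DEFB1. That gave 4 probes, 1 per gene, of 47223 probes on the array, and the lists name 605 genes among the probes tested. The study asked how the CDK4/6 inhibitor PD-0332991 (palbociclib) changes gene expression in pancreatic ductal adenocarcinoma cells. COLO-357 and AsPC-1 are established human cell lines of this tumour. The groups were COLO-357 with 5 µM PD-0332991 or vehicle for 72 h, COLO-357 with drug or vehicle for 24 h, and the same 4 groups of AsPC-1. Each of the 8 groups had 3 arrays, which the design calls biological triplicates. COLO-357 was kept in DMEM and AsPC-1 in RPMI 1640, so that line and medium cannot be told apart. Each line is a single cultured line and stands for 1 tumour.

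IL8, now called CXCL8, is a secreted chemokine that attracts neutrophils through the receptors CXCR1 and CXCR2. IL32 is an inflammatory cytokine that is made in many spliced forms. IL20RB is the beta subunit of the receptors for IL-19, IL-20 and IL-24, cytokines of the IL-10 family that act mainly on epithelial cells. DEFB1 is beta-defensin 1, an antimicrobial peptide that many epithelia make without a stimulus. CDK4 and CDK6 phosphorylate the retinoblastoma protein, which frees E2F factors to switch on the genes of S phase. NF-kappaB and AP-1 are the transcription factors best known for switching on IL8.

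RefSeq places CXCL8 on chromosome 4 at 73740569 to 73743716, IL32 on chromosome 16 at 3065403 to 3069530 and IL20RB on chromosome 3 at 136957983 to 137011085 (GRCh38.p14). RefSeq lists 19 curated transcripts of IL32, and the authors' list gives its probe as a transcript variant, so that the value need not stand for all forms. Promoters are shown for IL8 and IL32, the pair whose levels correlated most over the arrays, and for IL20RB, the receptor of the set. Each is the plus strand, 250 bases up to the base before the RefSeq start: chr4:73740319-73740568 for IL8, chr16:3065153-3065402 for the first of the IL32 starts and chr3:136957733-136957982 for IL20RB. Capitals mark matches to 3 motifs, which were searched on both strands from 250 bases before to 50 after the start.
IL8: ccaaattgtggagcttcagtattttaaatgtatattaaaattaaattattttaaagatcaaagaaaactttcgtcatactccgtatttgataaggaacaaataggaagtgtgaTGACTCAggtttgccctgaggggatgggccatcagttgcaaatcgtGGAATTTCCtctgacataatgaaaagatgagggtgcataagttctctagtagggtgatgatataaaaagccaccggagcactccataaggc
IL32: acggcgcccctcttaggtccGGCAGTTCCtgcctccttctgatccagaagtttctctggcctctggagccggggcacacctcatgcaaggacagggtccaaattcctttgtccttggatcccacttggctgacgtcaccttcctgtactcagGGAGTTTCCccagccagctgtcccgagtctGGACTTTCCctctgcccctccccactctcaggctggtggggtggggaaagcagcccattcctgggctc
IL20RB: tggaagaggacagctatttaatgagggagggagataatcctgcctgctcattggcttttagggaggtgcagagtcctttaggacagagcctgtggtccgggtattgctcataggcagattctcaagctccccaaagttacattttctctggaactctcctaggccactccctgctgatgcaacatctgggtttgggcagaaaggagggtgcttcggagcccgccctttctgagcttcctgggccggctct

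The motifs were TGANTCA for AP-1, GGNNNTTCC for NF-kappaB and TTTNNCGC for E2F, where N is any base. The IL8 window held 1 AP-1 match, TGACTCA, at -137 to -131 from the start. It also held 1 NF-kappaB match, GGAATTTCC, at -91 to -83, which reads as a match on both strands. The window at the first IL32 start held 3 NF-kappaB matches, at -230 to -222, -98 to -90 and -68 to -60. The window at the other IL32 start held none of these and 1 E2F match, TTTCACGC, at -238 to -231. The IL20RB window held 0 matches to the 3 motifs, which says only that these letters are not in it. Of 35116 promoter windows of the same length in RefSeq, 7.71% held the AP-1 motif, 20.1% the NF-kappaB motif and 6.89% the E2F motif. A match is a stretch of letters and was not tested as a site.

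Levels are given as log2 normalised signal, where 1 unit is a doubling, and are compared only within a probe. The 4 probes were detected on all 24 arrays, with a highest detection p of 0.0013. The arrays had 16440 to 20697 detected probes and a median signal of 85.5 to 133. The COLO-357 arrays at 24 h had the highest medians, 109.9 to 133. Changes with time in COLO-357 therefore depend on how array intensity is corrected. Replicate 2 of COLO-357 stood apart from replicates 1 and 3 in all 4 groups of that line, with deviations over all tested probes that correlated at -0.33 to -0.20 between that replicate and replicates 1 and 3 of the other treatment. Results that rest on it are given with and without it, an omission chosen after the data were seen. In a fit that weights arrays by how closely they follow their group, AsPC-1 vehicle replicate 1 at 24 h had the lowest weight, 0.21. The next lowest of the 24 arrays was 0.56. The array with 0.21 enters every AsPC-1 vehicle mean at 24 h. Of 8 ductal epithelial markers, 0 had a named probe, so the cell type label was not checked here. Of 10 immune markers only HLA-DRA had one, and it passed the test in none of the drug comparisons. These are bulk cultures, in which fewer cells that make a transcript and less of it per cell cannot be told apart.

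The drug comparisons asked which of these genes respond to CDK4/6 inhibition, when and in which line. IL32 and IL20RB were 1.7-fold and 3.37-fold higher in PD-0332991 than in vehicle cultures of COLO-357 at 72 h. In AsPC-1 at 72 h IL8 was 2.96-fold, IL32 1.89-fold and IL20RB 2.57-fold higher with drug. At 24 h DEFB1 was 2.12-fold higher in COLO-357 and IL32 1.57-fold higher in AsPC-1. Calls are at an adjusted p below 0.05 (limma, Benjamini-Hochberg over 24750 probes), and a difference at or above it did not pass. Among the 4 genes 2 were called higher in COLO-357 at 72 h, where 5.74% of all tested probes were, and 1 at 24 h, against 5.52%. In AsPC-1 3 were called higher at 72 h, against 3.26% of all probes, and 1 at 24 h, against 5.93%. None was called lower in any of these comparisons, where 5.54%, 5.78%, 2.79% and 5.79% of all probes were, in the same order.

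All 3 drug arrays lay above all 3 vehicle arrays for 2 of the 4 genes in COLO-357 at 72 h (13.6% of all probes) and for 1 at 24 h (15.9%). In AsPC-1 they did so for 3 genes at 72 h (13.3%) and for 3 at 24 h (12.9%). The median difference of the 4 genes, again in that order, was 0.77, 0.66, 1.14 and 0.74 log2. The median of all tested probes was -0.01, 0.01, 0.00 and 0.01 log2. The drug difference was above 0 in 15 of 16 pairs of gene and comparison, and 7 of the 16 were called.

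The 4 genes could be named only because the authors' lists hold genes picked for a change in these cultures or in a knockdown. Their directions are therefore not independent evidence. The authors' deposited tables listed 5 of the 16 pairs: IL20RB in COLO-357 at 72 h and in AsPC-1 at 72 h and at 24 h, and IL8 and IL32 in AsPC-1 at 72 h. Of those 5, 4 were called in this fit, and of the 11 pairs that were not listed 3 were called. The 3 were IL32 in COLO-357 at 72 h, IL32 in AsPC-1 at 24 h and DEFB1 in COLO-357 at 24 h.

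**Figure D1:**
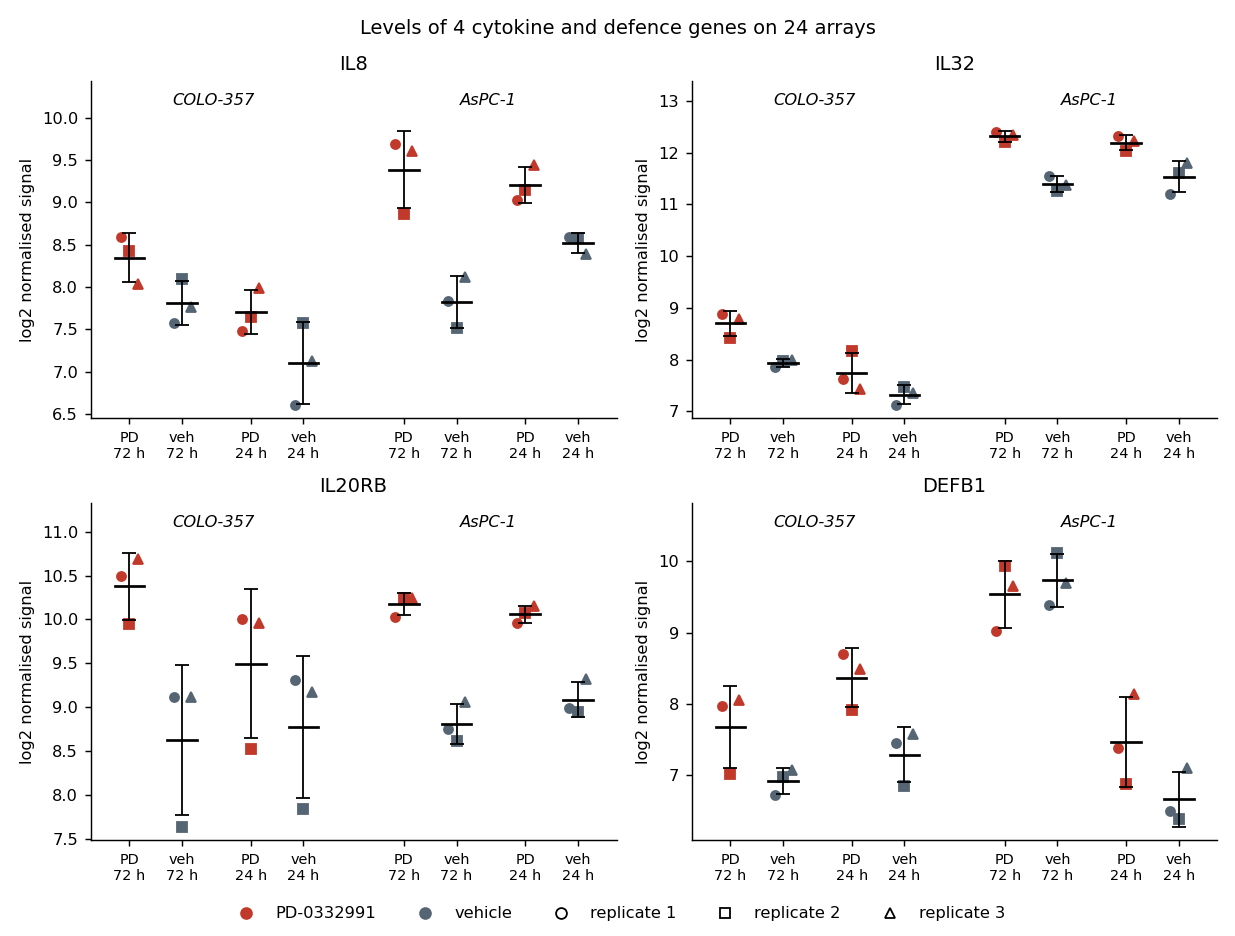
Level of each gene on each of 24 arrays, as log2 normalised signal, by line, time and treatment (PD, PD-0332991; veh, vehicle); points are arrays, lines are group means and bars are SDs (n = 3). DEFB1 in AsPC-1 is high at 72 h under either treatment (means 9.54 with drug and 9.73 with vehicle), and IL20RB replicate 2 of COLO-357 lies lowest in each of its groups.

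**Figure D2:**
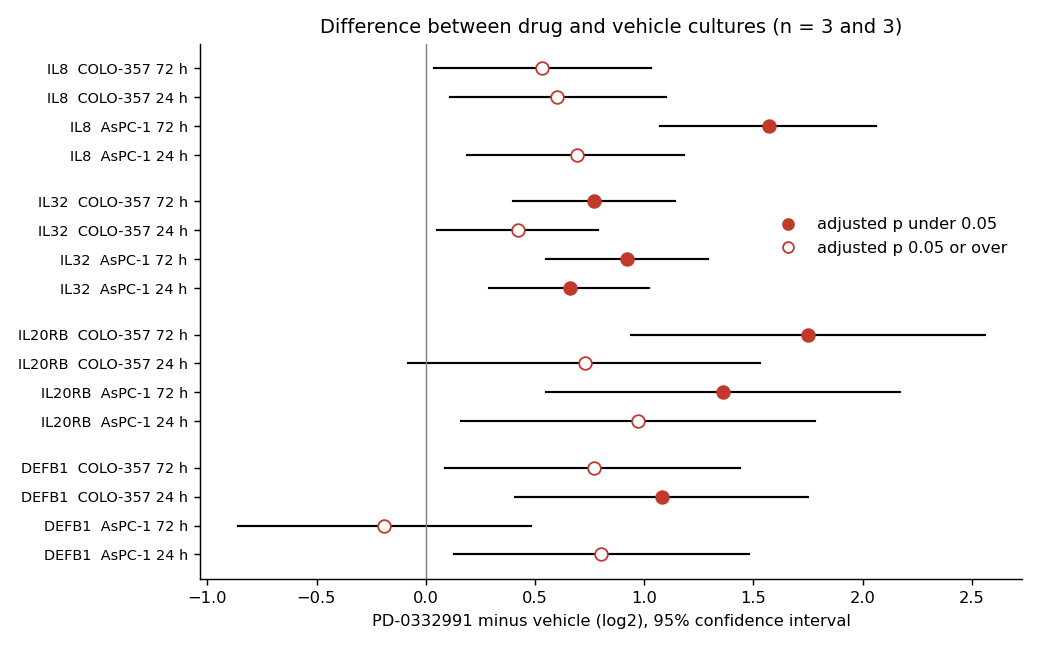
Difference between PD-0332991 and vehicle cultures for each gene, line and time in log2 units, with its 95% confidence interval; filled points passed an adjusted p of 0.05. The highest is IL20RB in COLO-357 at 72 h (1.75), and DEFB1 in AsPC-1 at 72 h is the only one below 0 (-0.19).

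IL8, the neutrophil chemokine, differed most between treatments in AsPC-1 at 72 h. Its level there was 9.69, 8.86 and 9.61 in PD-0332991 cultures, against 7.83, 7.51 and 8.12 in vehicle cultures (replicates 1 to 3). Every drug array lay above every vehicle array, and the difference was 1.57 ± 0.24 log2 (SE; adjusted p = 0.00019). At 24 h the AsPC-1 levels were 9.03, 9.14 and 9.44 with drug, against 8.59, 8.58 and 8.39 with vehicle. These arrays did not overlap either, and the difference of 0.69 ± 0.24 log2 missed the threshold (adjusted p = 0.067, 95% interval 0.19 to 1.18). It passed with the authors' scaling (0.63, adjusted p = 0.025).

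In COLO-357 the IL8 level at 72 h was 8.59, 8.42 and 8.03 with drug, against 7.58, 8.09 and 7.76 with vehicle. At 24 h it was 7.48, 7.65 and 7.99 with drug, against 6.61, 7.58 and 7.12 with vehicle. The groups overlapped at both times, through vehicle replicate 2. The differences of 0.53 log2 at 72 h (95% interval 0.04 to 1.03, adjusted p = 0.18) and 0.60 log2 at 24 h (0.11 to 1.10, adjusted p = 0.12) did not pass. The value at 72 h was 0.19 log2 under the authors' scaling, and 0.64 log2 without replicate 2 of every COLO-357 group (adjusted p = 0.2). Without vehicle replicate 2 at 24 h the difference there was 0.84 log2 (adjusted p = 0.037), and without replicate 2 of every COLO-357 group it was 0.87 log2 (adjusted p = 0.075). The drug difference at 72 h in COLO-357 minus that in AsPC-1 was -1.04 log2 for IL8 (95% interval -1.74 to -0.33, adjusted p = 0.1). It passed with the authors' scaling (-1.11, adjusted p = 0.0071) and without AsPC-1 drug replicate 2 at 72 h (-1.30, adjusted p = 0.03).

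The change of IL8 with time in vehicle cultures differed between the lines. In COLO-357 vehicle cultures IL8 was 0.71 log2 higher at 72 h than at 24 h (adjusted p = 0.043), where 9.78% of all probes were called higher. That call was lost on leaving out 4 of the 6 arrays singly (adjusted p up to 0.25), and without replicate 2 of every COLO-357 group (0.81 log2, adjusted p = 0.085). It was also lost under the authors' scaling (0.51 log2, adjusted p = 0.05), without background correction (0.48 log2, adjusted p = 0.053) and with no filter (adjusted p = 0.066). Before normalisation the deposited signals of these vehicle cultures overlapped, at 281.8 to 371.6 at 72 h and 258.5 to 372.3 at 24 h. In AsPC-1 all 3 vehicle arrays at 72 h lay below all 3 at 24 h, with a difference of -0.70 log2 that did not pass (adjusted p = 0.13). The change in COLO-357 minus the change in AsPC-1 was 1.41 ± 0.34 log2 (adjusted p = 0.013), against 8.37% of probes called for this difference in either direction. It stayed called on leaving out each of the 12 arrays in turn, at 1.16 to 1.65 log2. This comparison was added after the values were seen. In drug cultures the 72 h minus 24 h change was 0.64 log2 in COLO-357 (adjusted p = 0.06) and 0.18 log2 in AsPC-1, and neither passed. The COLO-357 value passed on leaving out replicate 3 of either time (adjusted p down to 0.042), with the replicate block over both times (adjusted p = 0.042) and in 4 other settings (0.49 to 0.64 log2).

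IL8 stood highest in AsPC-1 drug cultures at 72 h (9.39 ± 0.46, SD, n = 3) and at 24 h (9.21 ± 0.21), whose arrays overlapped. The lowest group was COLO-357 vehicle at 24 h (7.10 ± 0.48). From the AsPC-1 vehicle group at 24 h (8.52 ± 0.11) downwards every group overlapped its neighbour in the order. At 72 h the vehicle levels of COLO-357 and AsPC-1 differed by -0.01 log2 (adjusted p = 0.98). At 24 h COLO-357 minus AsPC-1 was -1.42 log2 in vehicle cultures (adjusted p = 2.7e-05), with 24.4% of all probes called lower. Under the authors' scaling it was -0.55 log2.

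IL32, the many-formed inflammatory cytokine, was the gene called in the most drug comparisons, 3 of 4. In COLO-357 at 72 h its level was 8.89, 8.42 and 8.79 in PD-0332991 cultures, against 7.85, 7.97 and 7.99 in vehicle cultures. All 3 drug arrays lay above the vehicle arrays, by 0.77 ± 0.18 log2 between the means (adjusted p = 0.0059). Under the authors' scaling this was 0.39 log2 (adjusted p = 0.06). At 24 h the COLO-357 level was 7.62, 8.17 and 7.44 with drug, against 7.13, 7.48 and 7.36 with vehicle. These arrays overlapped, and the difference of 0.42 log2 did not pass (95% interval 0.05 to 0.79, adjusted p = 0.15). It was 0.28 log2 without replicate 2 of every COLO-357 group (adjusted p = 0.47).

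In AsPC-1 at 72 h the IL32 level was 12.41, 12.20 and 12.34 with drug, against 11.55, 11.26 and 11.38 with vehicle. At 24 h it was 12.32, 12.03 and 12.23 with drug, against 11.21, 11.61 and 11.80 with vehicle. The treatments did not overlap at either time. The differences were 0.92 ± 0.18 log2 at 72 h (adjusted p = 0.0023) and 0.66 ± 0.18 log2 at 24 h (adjusted p = 0.017). The call at 24 h was lost without vehicle replicate 1, drug replicate 1 or drug replicate 3 (0.49 to 0.78 log2 over the 6 omissions, adjusted p up to 0.096). It was lost too with array weights (0.57 log2, adjusted p = 0.069) and with only the compared arrays in the fit (adjusted p = 0.14).

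IL32 differed more between the lines than between treatments or times. Its 4 COLO-357 groups had means of 7.32 to 8.70 and its 4 AsPC-1 groups means of 11.40 to 12.32, with no overlap between lines. In vehicle cultures COLO-357 minus AsPC-1 was -3.46 log2 at 72 h, or 11-fold lower in COLO-357 (adjusted p = 1.8e-13), where 26.7% of all probes were called lower. At 24 h it was -4.22 ± 0.18 log2, or 18.6-fold lower (adjusted p = 5.1e-15). Under the authors' scaling the differences were -2.71 log2 at 72 h and -3.07 log2 at 24 h. Inside AsPC-1 the drug groups of both times overlapped each other, as did the vehicle groups of both times.

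IL32 was higher at 72 h than at 24 h in COLO-357, and its change in AsPC-1 did not pass. In COLO-357 drug cultures the change was 0.96 ± 0.18 log2 (adjusted p = 0.00047), against 11.3% of probes called higher with time there. In COLO-357 vehicle cultures it was 0.61 log2 (adjusted p = 0.019). The vehicle call was lost without replicate 2 or replicate 3 at 72 h, or without replicate 1 at 24 h (adjusted p up to 0.095). Deposited signals before normalisation overlapped between times in COLO-357. With vehicle they were 326.1 to 363.2 at 72 h and 303.4 to 351.3 at 24 h. With drug they were 363.9 to 475.1 at 72 h and 293 to 501.8 at 24 h. Scaled by the authors, the drug arrays still overlapped, at 384.5 to 491.8 at 72 h and 253.6 to 406.4 at 24 h. The scaled vehicle arrays did not, at 328.3 to 357.7 at 72 h and 240 to 271.3 at 24 h. In AsPC-1 the changes were 0.12 log2 with drug and -0.14 log2 with vehicle. The change in COLO-357 minus that in AsPC-1 was 0.84 ± 0.25 log2 in drug cultures (adjusted p = 0.042, with 8.07% of probes called in either direction). That call was lost on leaving out 9 of the 12 arrays singly (adjusted p up to 0.12) and with the authors' scaling (0.35 log2, adjusted p = 0.28). It was lost too with scaling to the 75th percentile (0.71 log2, adjusted p = 0.13), with no filter (adjusted p = 0.055) and with only the compared arrays in the fit (adjusted p = 0.064). This comparison of the lines was added after the values were seen.

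IL20RB, the receptor subunit for IL-19, IL-20 and IL-24, was the one listed in the most of the authors' deposited tables for the drug. The authors' deposited table gives a ratio of treated to control of 2.381 in COLO-357 at 72 h. For AsPC-1 the authors' deposited tables give 2.381 at 72 h and 2 at 24 h. In COLO-357 at 72 h IL20RB was at 10.49, 9.95 and 10.69 in PD-0332991 cultures, against 9.12, 7.64 and 9.12 in vehicle cultures. At 24 h it was at 10.01, 8.52 and 9.96 with drug, against 9.31, 7.84 and 9.17 with vehicle. At 72 h the COLO-357 treatments did not overlap, and at 24 h they did, with replicate 2 low under both. The difference was 1.75 ± 0.39 log2 at 72 h (adjusted p = 0.0045) and 0.73 ± 0.39 log2 at 24 h (95% interval -0.08 to 1.53, adjusted p = 0.3). Replicate 2 of COLO-357 was below its group's mean in 4 of 4 groups, with a mean deviation of -0.83 log2, while replicates 1 and 3 deviated by 0.41 and 0.42 log2.

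In COLO-357 arrays with the same replicate number deviated together across all probes, at correlations of 0.12 to 0.47 between drug and vehicle arrays. Replicate 2 gave the higher values (0.38 and 0.47). Same-numbered arrays of replicates 1 and 3 correlated at 0.12 to 0.21, and replicate 1 with replicate 3 at 0.11 to 0.18, so that number set only replicate 2 apart. Within number, IL20RB was higher with drug by 1.38, 2.31 and 1.57 log2 at 72 h and by 0.70, 0.69 and 0.79 log2 at 24 h. All 6 pairs went the same way. With the replicate number as a block, the difference at 24 h was 0.73 ± 0.16 log2 (adjusted p = 0.0089). Without replicate 2 of every COLO-357 group it was 1.47 log2 at 72 h (adjusted p = 2.4e-05) and 0.74 log2 at 24 h (adjusted p = 0.0084). That omission was chosen after replicate 2 was seen to deviate, so its p-values are not independent evidence. The drug difference at 72 h minus that at 24 h was 1.03 log2 in COLO-357 (adjusted p = 0.47), and with the block its adjusted p was 0.03.

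In AsPC-1 at 72 h the IL20RB level was 10.03, 10.25 and 10.24 with drug, against 8.75, 8.62 and 9.06 with vehicle. At 24 h it was 9.96, 10.07 and 10.15 with drug, against 8.99, 8.95 and 9.32 with vehicle. The AsPC-1 treatments were apart at both times, by 1.36 ± 0.39 log2 at 72 h (adjusted p = 0.04) and 0.97 ± 0.39 log2 at 24 h (adjusted p = 0.12). The call at 72 h was lost on leaving out any 1 of the 6 arrays (1.26 to 1.49 log2, adjusted p 0.059 to 0.14). The SE is shared over all 8 groups, whose SDs were 0.38 to 0.85 in COLO-357 and 0.09 to 0.23 in AsPC-1. With only the compared arrays in the fit, the AsPC-1 difference at 24 h passed (adjusted p = 0.023).

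**Figure D3:**
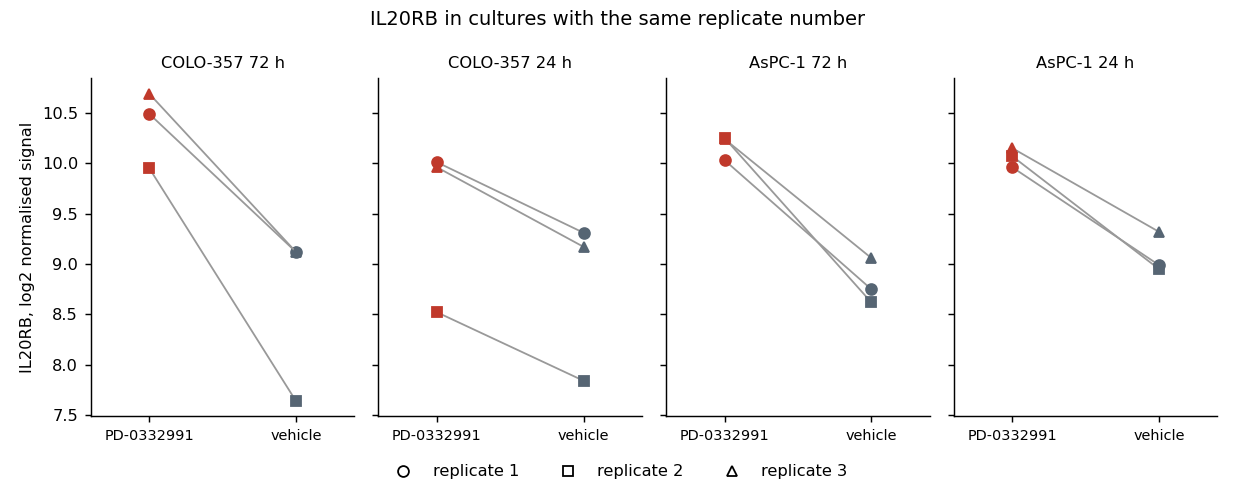
IL20RB level (log2 normalised signal) with PD-0332991 and with vehicle in each line at each time; lines join arrays of the same replicate number. In COLO-357 replicate 2 lies below the other numbers under both treatments, while each of the 12 lines runs from a higher drug value to a lower vehicle value.

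IL20RB did not separate the lines. Its group means ran between 10.37 ± 0.38 in COLO-357 drug and 8.62 ± 0.85 in COLO-357 vehicle cultures at 72 h (SD, n = 3), and every neighbour in the order overlapped. The 4 drug groups stood above the 4 vehicle groups in that order of means. In vehicle cultures COLO-357 minus AsPC-1 was -0.19 log2 at 72 h (adjusted p = 0.7) and -0.31 log2 at 24 h (adjusted p = 0.53). These were 0.30 and 0.15 log2 without COLO-357 replicate 2, so the sign rests on that replicate. In drug cultures of COLO-357 the 72 h level was 0.88 log2 above that at 24 h (adjusted p = 0.12), or 0.61 log2 without replicate 2 (adjusted p = 0.019). With the replicate block over both times, an unplanned setting, its adjusted p was 0.00055. The difference of this change from the AsPC-1 change was 0.76 log2, with an adjusted p of 0.45 without a block and 0.035 with it. That comparison of the lines was added after the values were seen. Same-numbered AsPC-1 arrays of 24 h and 72 h correlated in their deviations at only -0.03 to 0.06.

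DEFB1, the epithelial beta-defensin, lies on chromosome 8 at 6870592 to 6877936 (GRCh38.p14). Of the 4 genes it had the largest change with time, and in AsPC-1. In AsPC-1 drug cultures its level was 9.02, 9.94 and 9.65 at 72 h, against 7.37, 6.87 and 8.13 at 24 h. In AsPC-1 vehicle cultures it was 9.38, 10.12 and 9.70 at 72 h, against 6.49, 6.38 and 7.09 at 24 h. No 72 h array overlapped a 24 h array of the same treatment. The deposited signal before normalisation was 561 to 866.1 in the vehicle cultures at 72 h, against 145 to 154.9 in those at 24 h.

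The DEFB1 level in AsPC-1 vehicle cultures was 3.08 ± 0.32 log2 higher at 72 h than at 24 h, or 8.45-fold (adjusted p = 1.7e-05). This was rank 2 of 24750 tested probes in that comparison, in which 1.35% of probes were called higher. With drug it was 2.08 ± 0.32 log2 higher, or 4.23-fold (adjusted p = 0.00019), against 3.33% of probes called higher. Under the authors' scaling the changes were 1.71 log2 with drug and 2.33 log2 with vehicle, and both were called. In COLO-357 the change was -0.69 log2 with drug (adjusted p = 0.14) and -0.37 log2 with vehicle (adjusted p = 0.48). The change with drug passed under the authors' scaling (-0.75 log2, adjusted p = 0.013).

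The change with time in COLO-357 minus that in AsPC-1 was -3.45 ± 0.46 log2 in vehicle cultures (adjusted p = 0.00023), the lowest of 24750 probes. In drug cultures it was -2.77 ± 0.46 log2 (adjusted p = 0.00089). Both stayed called on leaving out each of the 12 arrays in turn, at -3.67 to -3.26 log2 with vehicle and -3.11 to -2.44 log2 with drug. Under the authors' scaling they were -2.65 log2 with vehicle and -2.46 log2 with drug. Both comparisons were added after the values were seen.

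**Figure D4:**
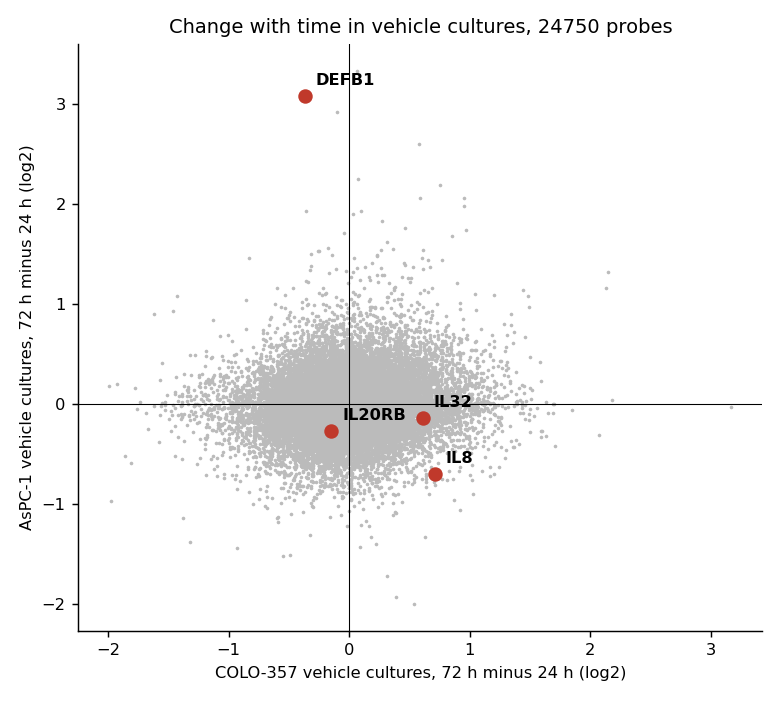
Change from 24 h to 72 h in vehicle cultures of COLO-357 (horizontal axis, log2) and AsPC-1 (vertical axis, log2) for 24750 tested probes (grey), with the 4 genes in red. DEFB1 lies far up at -0.37 in COLO-357 and 3.08 in AsPC-1, IL8 lies lower right at 0.71 and -0.70, and IL20RB lies near the centre.

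DEFB1 was also higher with drug than with vehicle at 24 h in COLO-357. Its level there was 8.70, 7.91 and 8.49 in PD-0332991 cultures, against 7.44, 6.84 and 7.57 in vehicle cultures. The arrays did not overlap, and the difference was 1.08 ± 0.32 log2 (adjusted p = 0.031). The call was lost without drug replicate 1 or 3 or vehicle replicate 1 or 2 (0.86 to 1.31 log2 over the 6 omissions, adjusted p up to 0.16). Without replicate 2 of every COLO-357 group it was 1.09 log2 (adjusted p = 0.073). At 72 h the level was 7.96, 7.01 and 8.05 with drug, against 6.71, 6.97 and 7.06 with vehicle. Drug replicate 2 lay among the vehicle arrays, and the difference of 0.77 log2 did not pass (95% interval 0.09 to 1.44, adjusted p = 0.14). It passed with the replicate block within line and time (adjusted p = 0.019), with array weights (0.92 log2, adjusted p = 0.028) and without drug replicate 2 (1.10 log2, adjusted p = 0.034). It did not pass with the block over both times (adjusted p = 0.066), without replicate 2 of every COLO-357 group (1.13 log2, adjusted p = 0.055) or under the authors' scaling (0.39 log2, adjusted p = 0.23).

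In AsPC-1 the level of DEFB1 overlapped between treatments at both times. The difference was -0.19 ± 0.32 log2 at 72 h (95% interval -0.86 to 0.48, adjusted p = 0.84) and 0.80 ± 0.32 log2 at 24 h (0.13 to 1.48, adjusted p = 0.12). The drug difference at 72 h minus that at 24 h did not pass (adjusted p = 0.29). At 72 h the drug difference in COLO-357 minus that in AsPC-1 was 0.96 log2 (adjusted p = 0.31).

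The order of DEFB1 levels put both AsPC-1 groups at 72 h on top, with means of 9.54 ± 0.47 for drug and 9.73 ± 0.37 for vehicle (SD, n = 3), clear of all others. COLO-357 with drug at 24 h came next (8.37 ± 0.41), and AsPC-1 vehicle at 24 h was lowest (6.65 ± 0.38). From the COLO-357 drug group at 24 h downwards, each group overlapped its neighbour. In vehicle cultures at 72 h COLO-357 minus AsPC-1 was -2.82 ± 0.32 log2, or 7.06-fold lower in COLO-357 (adjusted p = 1.3e-07). At 24 h COLO-357 was 0.63 log2 above AsPC-1 (adjusted p = 0.11). That difference passed under the authors' scaling, at 0.75 log2 (adjusted p = 0.0053).

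DEFB1 has a name here through the authors' deposited table for a cyclin knockdown in AsPC-1, whose arrays were not analysed here. That deposited table gives a ratio of knockdown to control of 0.045, or 22.2-fold lower. The parametric p in the authors' deposited table is 7.33e-05. It is the lowest ratio of the 95 probes in that list, and the next lowest is 0.19. Which cyclin was knocked down, and the culture time of those arrays, are not stated in the sources used here.

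In the fit of all arrays without a block, no difference of the drug effect between times or between lines was called for any of the 4 genes. Over all probes 1.84% were called for the time difference in COLO-357 and 3.08% in AsPC-1. For the line difference 3.38% were called at 72 h and 0.707% at 24 h. The drug effects at 24 h differed between lines by -0.08 log2 for IL8, -0.23 for IL32, -0.25 for IL20RB and 0.28 for DEFB1. A difference called in 1 line or time and not in the other is therefore not shown to be unequal.

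Among the 4 genes IL8 and IL32 were the closest pair. After each line's mean was taken off, their levels correlated at r = 0.81 over the 24 arrays, at 0.80 in COLO-357 and 0.85 in AsPC-1. IL20RB correlated with IL8 at 0.28 and with IL32 at 0.43 in COLO-357, and at 0.89 and 0.93 in AsPC-1. DEFB1 correlated with the others at -0.12 to 0.23 over all arrays. These are descriptions over 24 arrays that share treatments and times, and carry no test.

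Each gene was also set against the 604 other named genes for the 3 most alike in level. Likeness was Pearson r over the 24 arrays after each line's mean was taken off. All named genes have their name through the authors' lists of changed genes. Nearest to IL8 were NNMT, which methylates nicotinamide (r = 0.86), TNFAIP1 (0.84) and RAGE (0.84), which the file describes as a renal tumor antigen. NNMT was higher with drug than with vehicle by 0.93 ± 0.27 log2 in COLO-357 at 72 h (adjusted p = 0.025). In AsPC-1 at 72 h it was higher by 1.81 ± 0.27 log2 (adjusted p = 0.00012). At 24 h NNMT passed in AsPC-1 (1.01 log2, adjusted p = 0.014) and not in COLO-357 (0.56 log2, adjusted p = 0.21). NNMT was picked for its correlation with IL8 on these same arrays, so its values are a description. Nearest to IL32 were TCEAL3 (0.87), LOC729779 (0.86) and RAGE (0.85).

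Nearest to IL20RB were BTBD11 (r = 0.93), the laminin subunit LAMA3 (0.88) and DAAM1, a formin that builds actin filaments (0.86). All 3 also had COLO-357 replicate 2 below its group's mean in 4 of 4 groups, with mean deviations of -0.82, -0.90 and -0.41 log2, and these arrays enter the correlations. In COLO-357 at 72 h drug minus vehicle was 1.64 log2 for BTBD11 (adjusted p = 0.0052), 1.97 log2 for LAMA3 (adjusted p = 0.0037) and 1.97 log2 for DAAM1 (adjusted p = 1.6e-05). At 24 h in COLO-357 it was 1.21 log2 for BTBD11 (adjusted p = 0.037), and LAMA3 (adjusted p = 0.16) and DAAM1 (adjusted p = 0.4) did not pass. In AsPC-1 at 72 h LAMA3 (1.49 log2, adjusted p = 0.04) and DAAM1 (0.82 log2, adjusted p = 0.049) passed and BTBD11 (0.90 log2, adjusted p = 0.18) did not, and at 24 h none of the 3 passed. All 3 have a name through the authors' list of genes changed in COLO-357 at 72 h, and LAMA3 also through that of AsPC-1 at 72 h. Their passes there are therefore not independent evidence. They too were picked for their correlation on these arrays, so these values are a description.

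Nearest to DEFB1 were ALDH1A1, a retinaldehyde dehydrogenase (r = 0.86), the lysosomal protease CTSH (0.79) and the organic anion transporter SLCO2B1 (0.77). These genes were picked for their correlation with DEFB1 on the same arrays, so their changes with time are a description. In AsPC-1 vehicle cultures all 3 were higher at 72 h than at 24 h: ALDH1A1 by 1.38 log2 (adjusted p = 0.013), CTSH by 0.99 log2 (adjusted p = 0.0065) and SLCO2B1 by 1.16 log2 (adjusted p = 0.0067). In AsPC-1 drug cultures ALDH1A1 was 1.04 log2 higher at 72 h (adjusted p = 0.038), while CTSH at 0.51 log2 (adjusted p = 0.14) and SLCO2B1 at 0.17 log2 (adjusted p = 0.8) did not pass. Within COLO-357 the r of DEFB1 was 0.43 with ALDH1A1, 0.41 with CTSH and 0.85 with SLCO2B1. SLCO2B1 was also higher with drug at 24 h, by 1.23 log2 in COLO-357 (adjusted p = 0.00064) and 0.75 log2 in AsPC-1 (adjusted p = 0.031). It has its name through the authors' list for COLO-357 at 24 h, so the pass there is not independent evidence.

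Few related genes had a name in the deposited lists. Of 33 cytokines and chemokines 3 were named, namely IL8, IL32 and the T-cell chemokine CCL5. CCL5 passed in none of the drug comparisons, at -0.20 to 0.31 log2. Of 32 genes of antimicrobial defence 2 were named, DEFB1 and CFB, which is complement factor B of the alternative pathway. CFB was higher with drug in COLO-357, by 0.98 ± 0.23 log2 at 72 h (adjusted p = 0.0071) and 1.18 ± 0.23 log2 at 24 h (adjusted p = 0.0013). In AsPC-1 its difference was -0.67 log2 at 72 h (adjusted p = 0.094) and 0.00 log2 at 24 h. Of 16 genes of the IL-10 family and its receptors only IL20RB was named, and of 16 receptors and signalling genes of these cytokines and of 27 NF-kappaB targets 0 were named. The ligands of IL20RB, its partner subunits and the IL8 receptors are therefore not described here.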

How the data were processed

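Total RNA of 24 cultures was labelled with biotin and hybridised to Illumina bead arrays, per the labels' protocols. The authors deposited 1 linear signal intensity per probe and array, not normalised, with a detection p-value beside it per the file headers. The sources used here do not state the software behind the signals. A second table by the authors held the deposited intensities multiplied by a single factor per array, as checked on intensities over 50. The authors' deposited lists give mean intensities, a ratio of treated to control and, for the knockdowns, a parametric p-value, whose test the sources used here do not state. In the 2 knockdown lists 4 columns of mean intensities belong to other samples and were not used here.

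Intensities were background-corrected with the detection p-values, quantile-normalised and turned into log2 values with an offset of 16 (neqc, limma 3.58.1 in R 4.3.3) from the deposited intensities. Tests ran on the 24750 of 47223 probes with detection (p under 0.05) on 3 or more arrays. All 24 arrays were fitted with 8 group means (lmFit and eBayes, 16 residual and 5.84 prior degrees of freedom). P-values were two-sided, with Benjamini-Hochberg adjustment over the 24750 probes, in 16 comparisons, of which 2 (the line difference of the change with time) were added after the values were seen. The number of arrays limits the precision. The procedure was tested on simulated data.

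Every probe with the 4 names was described, whatever its values. The genes named beside them are the 3 with the highest correlation per gene and the named members of fixed lists. The members and lists were chosen with earlier results of these data known. Alternatives were other scalings, backgrounds and offsets, detection filters, fits of only the groups compared, replicate blocks, array weights, and leaving out each array. Same-numbered drug and vehicle arrays correlated in their deviations at 0.12 to 0.47 in COLO-357 and 0.01 to 0.12 in AsPC-1. The replicate blocks took numbers as pairs in both lines, though the AsPC-1 correlations over all tested probes give little ground for pairs there. The COLO-357 pairing comes from the data and rests mainly on replicate 2, since replicates 1 and 3 correlated with each other at 0.11 to 0.18. Python 3.11.15 with matplotlib 3.10.9 drew the figures.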

Additional observations from a re-analysis of the deposited data

Results flagged for a closer look

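The change from 24 h to 72 h differed between the lines, by the test of the difference itself, for 4 results. These comparisons were added after the values were seen, so their p-values are not independent evidence. DEFB1 was singled out in both treatments. Its change in COLO-357 minus that in AsPC-1 was -2.77 log2 in PD-0332991 cultures (adjusted p = 0.00089) and -3.45 log2 in vehicle cultures (adjusted p = 0.00023). For IL8 the difference was 1.41 log2 in vehicle cultures (adjusted p = 0.013), with a change of 0.71 log2 in COLO-357 and -0.70 log2 in AsPC-1. For IL32 it was 0.84 log2 in PD-0332991 cultures (adjusted p = 0.042), a call that was lost on leaving out 9 of the 12 arrays singly (adjusted p up to 0.12), with the authors' scaling (0.35 log2, adjusted p = 0.28) and with scaling to the 75th percentile (0.71 log2, adjusted p = 0.13). The lines were kept in different media, so line and medium cannot be told apart.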

How the results depend on the processing

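The 4 probes were detected on every array, and each group had 3 arrays, which limits the precision. Of the 7 called drug effects, IL8 and IL32 in AsPC-1 at 72 h and IL20RB in COLO-357 at 72 h kept their call under every alternative run. With the authors' scaling, IL8 (0.63 log2) and IL20RB (1.01, adjusted p = 0.042) in AsPC-1 at 24 h passed and IL32 in COLO-357 at 72 h (0.39) did not, and 5873 probes were called in COLO-357 at 72 h against 2791. IL8 in AsPC-1 at 24 h also passed without background correction (0.59) and with an offset of 50 (0.64). With no filter IL20RB in AsPC-1 at 72 h (1.36, adjusted p = 0.085) and DEFB1 in COLO-357 at 24 h (1.08, adjusted p = 0.068) lost their calls. With only the groups compared IL32 in AsPC-1 at 24 h (0.66, adjusted p = 0.14) lost its call and IL20RB there (0.97) passed, and 674 and 961 probes were called in AsPC-1 at 24 h and 72 h, against 2900 and 1499. With the replicate block within line and time IL8 (0.69), IL20RB (0.97) and DEFB1 (0.80) in AsPC-1 at 24 h, IL20RB in COLO-357 at 24 h (0.73) and DEFB1 in COLO-357 at 72 h (0.77) passed, and no call of a drug effect was lost. With the block over both times IL8 (0.69) and IL20RB (0.97) in AsPC-1 and IL20RB in COLO-357 (0.73) passed at 24 h. Both block fits share 1 spread per probe over the lines, and same-numbered AsPC-1 arrays correlated at only 0.01 to 0.12. For IL20RB in AsPC-1 at 24 h the SE was 0.16 with either block, against 0.39 without. Over all tested probes AsPC-1 thus gave little ground for pairs, but single genes differed. Replicate 1 of AsPC-1 lay below its group's mean in 4 of 4 groups for DEFB1 (mean deviation -0.28 log2) and IL20RB (-0.10 log2). For IL8 replicate 2 did so in 3 of 4 groups (-0.21 log2). How far the AsPC-1 passes with a block rest on pairing in AsPC-1 was not tested. With array weights IL32 in AsPC-1 at 24 h (0.57) lost its call, IL8 at 24 h (0.64) and DEFB1 at 72 h (0.92) in COLO-357 passed, and 4413 and 4823 probes were called in COLO-357 at 24 h and 72 h, against 2796 and 2791. Without replicate 2 of every COLO-357 group, a choice made after seeing the data, IL20RB at 24 h (0.74) passed and DEFB1 (1.09) did not. Leaving out 1 array gave 0.49 to 0.78 for IL32 in AsPC-1 at 24 h, 1.26 to 1.49 for IL20RB and -0.39 to 0.06 for DEFB1 in AsPC-1 at 72 h, 0.36 to 0.84 for IL8 and 0.86 to 1.31 for DEFB1 in COLO-357 at 24 h, and 0.58 to 1.10 for DEFB1 in COLO-357 at 72 h. It gave 831 to 1317 called probes in AsPC-1 at 72 h and 1840 to 2197 and 1705 to 2998 in COLO-357 at 24 h and 72 h. The count moved by over 1.5 times without vehicle replicate 2 (831), drug replicate 1 (912) or drug replicate 3 (951) in AsPC-1 at 72 h, without vehicle replicate 1 (1840) in COLO-357 at 24 h, and without drug replicate 1 (1705) or 3 (1710) in COLO-357 at 72 h.

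Differences that were not called and lay near 0 turned their sign under some settings. With the authors' scaling these were the IL20RB line difference of the drug effect at 72 h (-0.01) and of the vehicle time change (-0.08), IL32 with time in AsPC-1 vehicle cultures (0.08), and COLO-357 minus AsPC-1 in vehicle cultures for IL20RB (0.41 at 24 h, 0.32 at 72 h) and IL8 at 72 h (0.39). With scaling to the 75th percentile they were IL32 with time in AsPC-1 vehicle cultures (0.01), IL8 between lines at 72 h (0.10) and the IL20RB line difference of the vehicle time change (-0.01). Without background correction the IL8 time difference of the drug effect in COLO-357 was 0.01. With array weights the vehicle line difference of IL20RB at 72 h was 0.01. Normalisation inside each line gave vehicle line differences of 0.39 and 0.51 for IL20RB at 24 h and 72 h, and 0.68 for IL8 at 72 h. That setting puts the lines on separate scales, so these values cannot be read as differences between lines. Without COLO-357 replicate 2 the turned values were 0.03 (DEFB1 time difference), 0.18 (IL8 line difference at 24 h), 0.01 (IL32 line difference at 72 h), and 0.15 and 0.30 (IL20RB between vehicle lines at 24 h and 72 h). Leaving out 1 array, the line difference of the drug effect at 24 h ran from -0.33 to 0.15 for IL8, -0.72 to 0.24 for IL20RB and -0.02 to 0.62 for DEFB1, and at 72 h from -0.10 to 0.64 for IL20RB. The vehicle line difference ran from -0.58 to 0.15 (24 h) and -0.44 to 0.30 (72 h) for IL20RB and from -0.16 to 0.14 for IL8 (72 h). The IL20RB line difference of the vehicle time change ran from -0.34 to 0.62, IL20RB with time in COLO-357 vehicle cultures from -0.62 to 0.34, and the time difference of the drug effect in COLO-357 from -0.31 to 0.18 for IL8 and -0.55 to 0.02 for DEFB1. The causes of these turns and lost calls were not tested.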
